A study of Homo sapiens with 32 samples.

Results

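Carfilzomib (Cfz) given before all-trans retinoic acid (ATRA) was compared with ATRA alone across all genes in MM.1S, an established human multiple myeloma cell line. The comparison takes 16 of the 32 samples, which are 4 of the 8 libraries sequenced in 4 lanes each. It sets the single ATRA+Cfz library against ATRA 1, ATRA 2 and ATRA 3. ATRA+Cfz cells were pulsed for 1 h with carfilzomib, at a dose that the labels do not state, and then spent 12 h in medium containing 10 µM ATRA. ATRA cells had the same schedule with the vehicle dimethyl sulfoxide (DMSO) in the pulse. Both groups therefore carried ATRA, and only the pulse differed. The Cfz library (n = 1) and the DMSO libraries (n = 3) had the same pulses followed by DMSO in the medium, and they served to set the carfilzomib effect without ATRA beside the effect with it. Of 24249 genes in the table, 15827 passed the filter on low values and were tested. Levels are in FPM, a unit that scales fragments to the library total, averaged over the 4 lanes of a library, which are not scaled by gene length.

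Carfilzomib is an irreversible inhibitor of the chymotrypsin-like site of the proteasome, which is carried by the subunit PSMB5. The proteasome degrades ubiquitin-tagged proteins in a 20S core capped by 19S particles that bind, unfold and feed in the substrate. Myeloma cells secrete immunoglobulin and depend on protein disposal, and proteasome inhibitors are a standard treatment of the disease. Several transcription factors are known to answer a loss of proteasome activity: NFE2L1, which drives the proteasome genes, HSF1, which drives chaperones, NFE2L2 (NRF2), which drives antioxidant genes, and ATF4, which drives the integrated stress response. ATRA is a vitamin A derivative that binds nuclear retinoic acid receptors, and induction of CD38 and of the retinoid-degrading enzyme CYP26A1 is a known response to it.

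Depth was 14136937 reads for ATRA+Cfz and 14381173 to 15876106 reads for the ATRA libraries, so that 3 reads correspond to 0.189 to 0.212 FPM in these libraries. Chi-square per degree of freedom was 39.4 to 44.2 between ATRA+Cfz and the ATRA libraries, against 1.86 to 3.16 among the ATRA libraries. Plasma cell markers were present in every library: XBP1 was at 2260 FPM in ATRA+Cfz and at 2635, 2648 and 2656 FPM in ATRA, and the adhesion proteoglycan SDC1 (CD138) at 924 FPM against 1222, 1270 and 1204 FPM. Markers of T and NK cells summed to 3.46 FPM in ATRA+Cfz and 3.15 to 4.78 FPM in ATRA, and myeloid markers to 2.33 FPM against 1.39 to 2.21 FPM. Stromal markers summed to 170 FPM against 136 to 145 FPM, of which VIM held 147 FPM against 125, 125 and 124 FPM. B cell markers summed to 36.3 FPM against 41.7 to 46.4 FPM. DMSO 3 stood apart from the other DMSO libraries, at 12.1 and 12.8 on this measure against them, where DMSO 1 against DMSO 2 gave 1.88, and it enters the shared estimate of the spread. The ATRA+Cfz library has no replicate and was assumed to vary like the ATRA and DMSO libraries. The labels do not say that libraries came from separate cultures, so p-values rest on a spread between libraries that may be only technical.

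With carfilzomib before ATRA, 1681 genes were called higher (10.6% of those tested) and 3203 were called lower (20.2%), which is 30.9% either way at a Benjamini-Hochberg adjusted p under 0.05 in limma. The median over all tested genes was -0.04 on the log2(FPM + 0.5) scale, on which all changes here are given with the standard error (SE) of the fit. Of the calls, 34.4% were higher. With edgeR's test on recovered reads and its own scaling, 2029 genes were higher and 2449 lower, which is 45.3% higher. Changes of at least 2-fold were found for 146 genes called higher and 138 called lower. Of the 146, 89 were also called higher in Cfz against DMSO. That comparison sets other libraries against each other but uses the same estimate of the spread, so its calls are not independent of these. Of the 138, 67 were also called lower there. In Cfz against DMSO, 7.94% of all tested genes were called higher and 17% lower. These are bulk RNA values, so fewer cells of a state and less RNA per cell cannot be told apart.

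**Figure D1:**
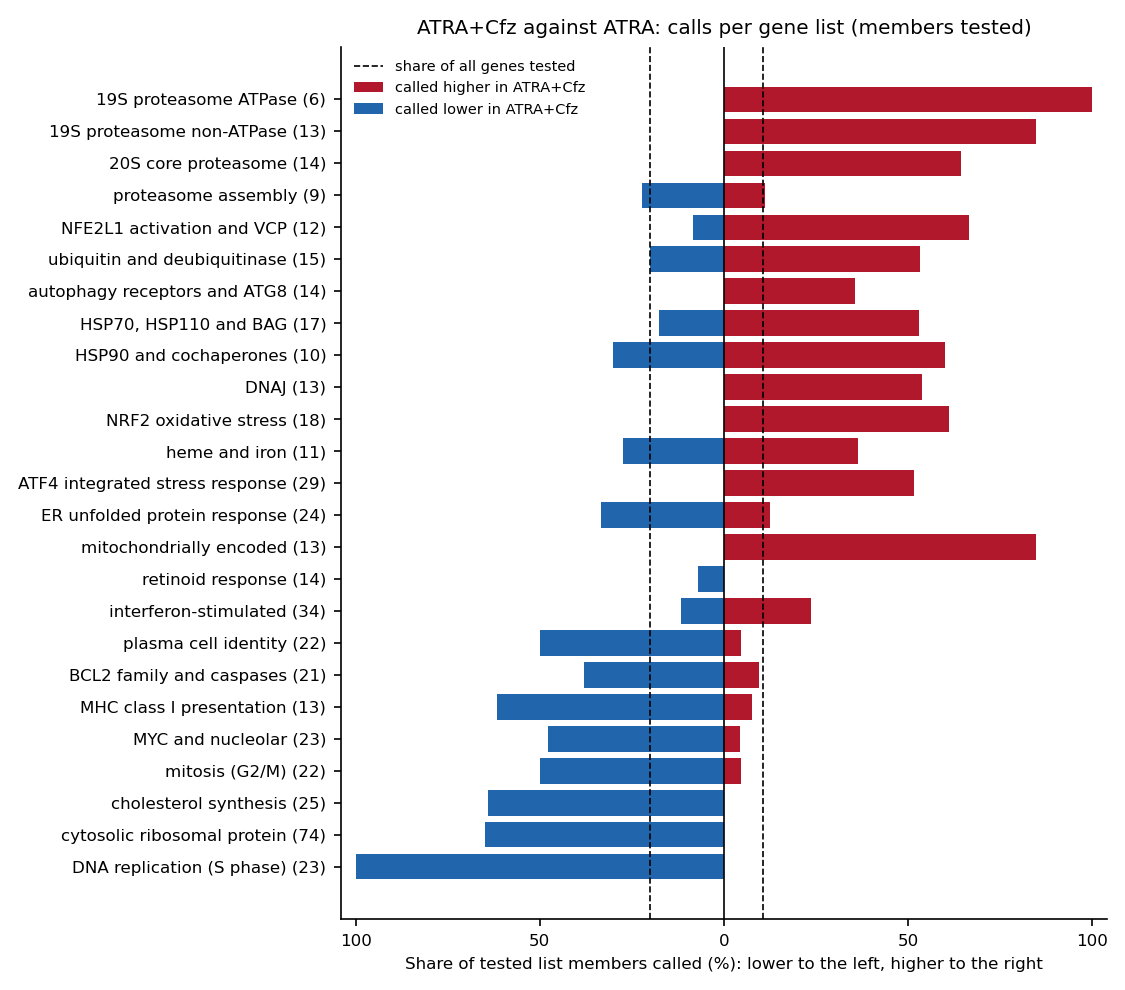
Share of the tested members of 25 gene lists called higher (bars to the right) or lower (bars to the left) in ATRA+Cfz against ATRA, with the number tested in brackets. Dashed lines mark the share of all tested genes, 10.6% higher and 20.2% lower. All 6 ATPases of the 19S particle were called higher and all 23 DNA replication genes lower.

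Genes of the proteasome itself were higher in the ATRA+Cfz library. Of the 33 subunits of the 20S core and the 19S particle, 26 were called higher and none lower, and all 33 lay above the range of the ATRA libraries. All 6 ATPases, the ring that unfolds the substrate, were called higher, with a median log2 change of 0.54. Of the 13 non-ATPase subunits 11 were called higher, with a median of 0.50, and of the 14 core subunits 9 were, with a median of 0.27. The summed level of the 19S non-ATPase genes was 4130 FPM in ATRA+Cfz, against 2869, 2850 and 2884 FPM in ATRA.

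The largest rise of a subunit was that of the ATPase PSMC4, at 274 FPM in ATRA+Cfz and 146, 146 and 144 FPM in ATRA. The log2 change was 0.91 ± 0.05 (adjusted p = 1.5e-06), a 1.89-fold higher level. PSMD2, a scaffold subunit of the 19S base, had 951 FPM in ATRA+Cfz against 634, 639 and 641 FPM in ATRA (0.58 ± 0.05). PSMD6 rose by 0.76 ± 0.05 and PSMD12 by 0.74 ± 0.05, with PSMD12 at 295 FPM against 172, 175 and 181 FPM. In the core, PSMB2 was at 406 FPM in ATRA+Cfz against 264, 264 and 260 FPM in ATRA (0.62 ± 0.05). PSMB7, the trypsin-like subunit, was at 255 FPM against 172, 170 and 169 FPM (0.58 ± 0.05). In each of these genes the ATRA+Cfz library stood above all ATRA libraries, and the ATRA libraries lay close together.

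PSMB5, the subunit that carfilzomib binds, had 51.9 FPM in ATRA+Cfz and 47.5, 43.0 and 46.0 FPM in ATRA. Its log2 change of 0.19 ± 0.09 did not pass the test (adjusted p = 0.12). The other core subunits that did not pass were PSMA2, PSMA3, PSMA7 and PSMB1, with log2 changes of 0.09 to 0.13. PSMD7 and the ubiquitin receptor ADRM1 did not pass among the 19S genes, at 0.09 each. The log2 changes of the 14 core subunits spanned 0.09 to 0.62, and the number of them called higher ranged from 8 to 13 over the alternative settings.

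**Figure D2:**
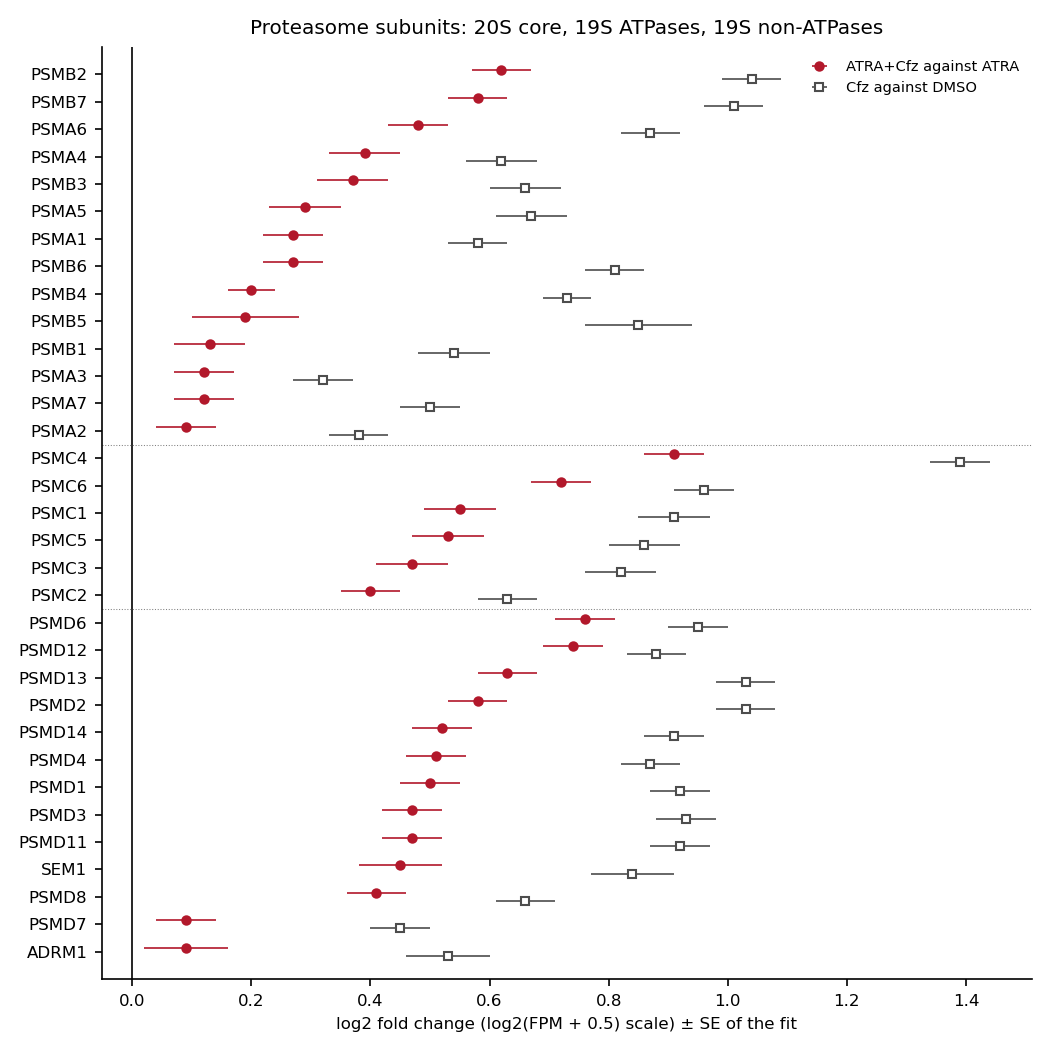
Log2 fold change of the 33 proteasome subunits, with the SE of the fit, for ATRA+Cfz against ATRA (filled circles) and Cfz against DMSO (open squares); dotted lines separate 20S core, 19S ATPases and 19S non-ATPases. All circles lie above 0, from 0.09 to 0.91, and the squares lie to their right.

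The helpers of the proteasome moved differently from its subunits. Of 9 assembly chaperones, POMP, which completes the core particle, rose by 0.42 ± 0.06 to 125 FPM in ATRA+Cfz against 94.8, 91.0 and 93.0 FPM in ATRA. PSMG1 and PSMG2, which pair to build the core's outer ring, fell by 0.33 and 0.25, and the call of PSMG2 (adjusted p = 0.041) was lost in 12 of 20 alternative settings. The 2 lower calls of this list became 1 without ATRA 1, 2 or 3 and 4 without DMSO 3. Of all tested genes, 20.2% were called lower. PSMG1 is uncertain because its lanes differed by more than sampling noise in at least 1 library. The activator PSME4 (PA200) rose by 0.56 ± 0.05, to 372 FPM against 252, 250 and 257 FPM. PSME1 and PSME2, which form the interferon-inducible cap PA28, fell by 0.46 and 0.28. PSMB8 and PSMB9, the interferon-inducible core subunits of the immunoproteasome, fell by 0.45 ± 0.09 and 0.47 ± 0.09, and PSMB10 was at 48.2 FPM in ATRA+Cfz against 61.4, 62.9 and 55.6 FPM in ATRA (adjusted p = 0.052).

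NFE2L1 rose by 0.49 ± 0.06 (adjusted p = 8.7e-05), with 344 FPM in ATRA+Cfz and 246, 246 and 241 FPM in ATRA. Of all tested genes, 10.6% were called higher and 20.2% lower. Of 12 genes for the release of NFE2L1 from the endoplasmic reticulum and its partners, 8 were called higher and 1 lower. The lower one, the ubiquitin ligase SYVN1 (adjusted p = 0.044), lost its call without ATRA 1, ATRA 2, DMSO 1 or DMSO 2, and 3 were called lower without DMSO 3. UFD1 and NPLOC4, which hold substrates for the unfolding enzyme VCP, rose by 0.83 ± 0.06 and 0.67 ± 0.05, and VCP itself by 0.35 ± 0.06. The protease DDI2, which cuts NFE2L1 into its active form, was at 206 FPM in ATRA+Cfz against 222, 224 and 223 FPM in ATRA and did not pass the test (adjusted p = 0.28).

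Ubiquitin and its handling genes were mostly higher. Of 15 tested, 8 were called higher and 3 lower, where 10.6% and 20.2% of all tested genes were. The polyubiquitin gene UBB had 423 FPM in ATRA+Cfz and 343, 344 and 340 FPM in ATRA (0.30 ± 0.05, adjusted p = 5.1e-04), whereas RPS27A, which makes ubiquitin fused to a ribosomal protein, fell by 0.24 ± 0.04. ZFAND2A, a zinc finger protein that associates with the proteasome under arsenite, rose by 1.22 ± 0.13, with 27.9 FPM against 12.1, 11.3 and 11.9 FPM. The deubiquitinase USP14 and the shuttle factor UBQLN1 each rose by 0.59 ± 0.05.

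SQSTM1 (p62), the receptor that carries ubiquitinated cargo to autophagosomes, had 3214 FPM in ATRA+Cfz and 755, 747 and 741 FPM in ATRA. It was 4.30-fold higher, with a log2 change of 2.10 ± 0.05 and an adjusted p of 5.8e-10. Of 14 autophagy genes tested, 5 were called higher and none lower, where 10.6% and 20.2% of all tested genes were. Of the 14, 1 was called lower without DMSO 2 and 2 without DMSO 3. GABARAPL1, a membrane anchor of the ATG8 family, had 102 FPM in ATRA+Cfz against 41.0, 39.8 and 41.8 FPM in ATRA (1.31 ± 0.11). The receptors CALCOCO2 and TAX1BP1 rose by 0.78 and 0.54. MRNIP, a DNA repair factor, had 117 FPM against 31.6, 33.5 and 33.7 FPM (1.82 ± 0.08). MRNIP lies on the minus strand at chr5:179835133-179862173 and SQSTM1 on the plus strand at chr5:179806398-179838078 in the GENCODE annotation of GRCh38, so that they overlap by 2946 bases. The labels do not state whether the quantification used strand, and reads of these overlapping genes may not be told apart.

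Chaperones of the cytosol included the largest fold changes among the genes named here. HSPA1A and HSPA1B encode near-identical copies of the stress-inducible HSP70, and how reads were split between them is uncertain. Their summed level was 674 FPM in ATRA+Cfz and 92, 89.5 and 91 FPM in ATRA, which is 7.42-fold higher. The separate values were 573 FPM against 88.3, 84.2 and 88.6 FPM for HSPA1B and 101 FPM against 3.71, 5.29 and 2.42 FPM for HSPA1A, and the lanes of both genes differed by more than sampling noise in at least 1 library. HSPA6, a further inducible HSP70 that is nearly silent without stress, had 15.4 FPM against 1.45, 0.763 and 0.633 FPM (3.49 ± 0.31, adjusted p = 1.9e-05). The constitutive HSPA8, which sorts clients for folding or degradation, was at 4909 FPM against 2720, 2666 and 2707 FPM (0.86 ± 0.05). HSPH1, an HSP110 that exchanges the nucleotide of HSP70, had 427 FPM against 263, 270 and 265 FPM (0.68 ± 0.06).

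Of all tested genes, 10.6% were called higher and 20.2% lower, beside which the counts of this paragraph stand. Of the 17 genes of the HSP70, HSP110 and BAG families, 9 were called higher and 3 lower. The 3 lower calls were 1 without ATRA 1 or without ATRA 2, and 2 without ATRA 3, DMSO 1 or DMSO 2. Of 10 HSP90 and cochaperone genes, 6 were called higher and 3 lower. The inducible HSP90AA1 had 2803 FPM in ATRA+Cfz and 1228, 1213 and 1226 FPM in ATRA (1.20 ± 0.05, adjusted p = 2.0e-07). The constitutive HSP90AB1 was at 3768 FPM against 2386, 2370 and 2417 FPM (0.66 ± 0.05). FKBP5, a cochaperone of steroid receptors, fell by 0.58 ± 0.06, and the mitochondrial HSP90 TRAP1 fell by 0.32. Of 13 DNAJ genes, the cochaperones that stimulate HSP70, 7 were called higher and none lower, and DNAJB1 had 192 FPM against 101, 100 and 105 FPM (0.91 ± 0.06). The transcription factor HSF1 itself fell by 0.27 ± 0.06 at the RNA level. The small heat shock gene HSPB1 was at 4.16 FPM against 3.65, 3.68 and 3.63 FPM and did not pass the test, and the 5 chaperonin genes CCT2, CCT4, CCT5, CCT8 and TCP1 did not either, with log2 changes of -0.09 to 0.07.

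HSF1 binds heat shock elements, which are GAA units in alternating orientation. A stretch of 3 such units spaced by 2 bases (GAANNTTCNNGAA or TTCNNGAANNTTC) was searched in the 250 bases before the start of each gene in the RefSeq promoter table of GRCh38.p14, on both strands. It was held by 120 of 27305 promoters (0.439%), by 2 of the 15 matched promoters of the HSP70 list, by 1 of 9 of the HSP90 list and by 1 of 13 of the DNAJ list. A match describes letters in a window and shows no binding. The 3 stretches below are from chaperone genes called higher, printed on the gene's own strand with the element in capitals, to show the sequence that these promoters share. They are HSPA6 at chr1:161524446-161524498 on the plus strand, HSPA8 at chr11:123062159-123062211 on the minus strand and the HSP90 cochaperone CHORDC1 at chr11:90223067-90223119 on the minus strand.
HSPA6: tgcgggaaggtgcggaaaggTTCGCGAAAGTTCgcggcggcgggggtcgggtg
HSPA8: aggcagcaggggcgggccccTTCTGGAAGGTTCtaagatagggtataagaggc
CHORDC1: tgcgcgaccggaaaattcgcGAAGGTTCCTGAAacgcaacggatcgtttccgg
The capitals begin 74, 55 and 50 bases before the start of HSPA6, HSPA8 and CHORDC1. CHORDC1 had 179 FPM in ATRA+Cfz and 116, 111 and 111 FPM in ATRA (0.67 ± 0.06), and its window held 3 matches.

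**Figure D3:**
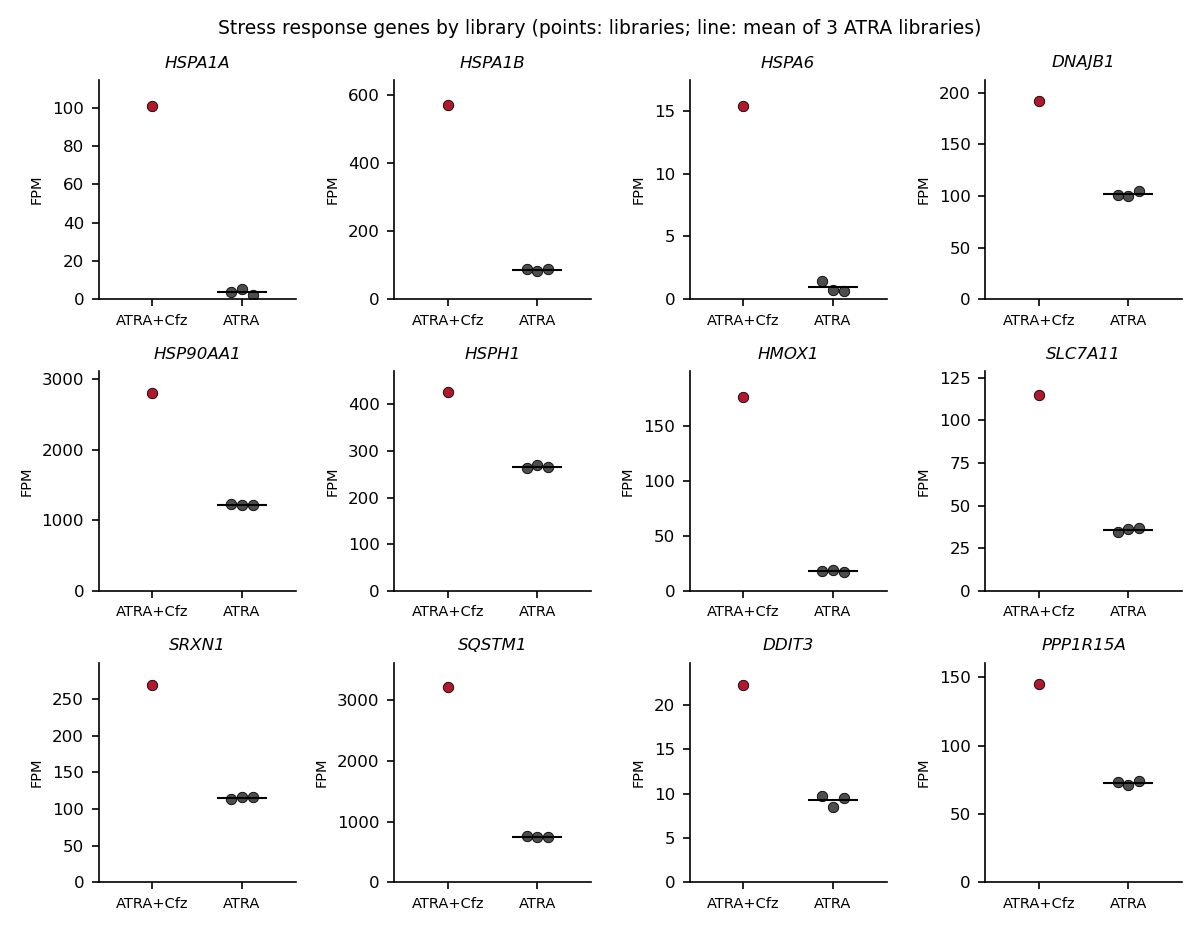
FPM of 12 stress genes in the ATRA+Cfz library (1 point) and the 3 ATRA libraries (3 points, line at their mean), each panel from 0. In every panel the ATRA+Cfz point lies above all ATRA points, with SQSTM1 at 3214 against 741 to 755 FPM and HMOX1 at 177 against 17.6 to 19.1 FPM.

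HMOX1, the enzyme that breaks down heme, had 177 FPM in ATRA+Cfz and 18.5, 19.1 and 17.6 FPM in ATRA, a 9.63-fold higher level (3.23 ± 0.18, adjusted p = 1.4e-06). Of 18 NRF2 genes tested, 11 were called higher and none lower, where 10.6% and 20.2% of all tested genes were. The median was 0.33, and 2 were called lower without DMSO 3. Of the 18, 4 lay below the range of the ATRA libraries. SLC7A11, which imports cystine for glutathione, had 115 FPM against 34.4, 36.2 and 37.0 FPM (1.67 ± 0.08). SRXN1, which repairs oxidised peroxiredoxins, was at 269 FPM against 114, 116 and 116 FPM (1.22 ± 0.07). GCLM, a subunit of the first enzyme of glutathione synthesis, was at 71.6 FPM against 39.3, 39.6 and 39.5 FPM (0.85 ± 0.08). NFE2L2 itself rose by 0.54 ± 0.06, at 122 FPM against 82.2, 88.7 and 81.8 FPM.

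Among 11 heme and iron genes, 4 were called higher and 3 lower, where 10.6% and 20.2% of all tested genes were. FTL, the light chain of the iron store ferritin, had 4015 FPM in ATRA+Cfz and 2119, 2106 and 2097 FPM in ATRA (0.93 ± 0.07), and FTH1, the heavy chain, rose by 0.24. The transferrin receptor TFRC, which takes iron up, fell by 0.51 ± 0.07, with 259 FPM against 362, 374 and 369 FPM. The iron exporter SLC40A1 and the heme exporter FLVCR1 fell by 0.74 and 0.56. Metallothioneins were not tested, since none passed the filter on low values.

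NRF2 and NFE2L1 both bind antioxidant response elements with the core TGACNNNGC. In the same promoter windows this core was found on either strand in 3013 of 27305 genes (11%). It was held by 4 of the 14 matched NRF2 promoters, all 4 of genes called higher, and 10 of the 14 were of genes called higher. The share differed among other lists, with 6 of 12 lysosome promoters, 6 of 12 ubiquitin promoters and 0 of 20 cholesterol synthesis promoters holding it. In the proteasome it was held by 1 of 10 matched core promoters, none of 6 ATPase promoters, 3 of 12 non-ATPase promoters and 4 of 8 assembly promoters. Of the 24 matched proteasome and assembly genes called higher, 3 held it, and none of these was an assembly gene. None of the 9 matched heme and iron promoters held it. The 3 stretches below, of genes called higher, show the core in capitals on the gene's own strand, where GCLM carries it in reverse. They are GCLM at chr1:93909436-93909484, the 19S subunit gene PSMD12 at chr17:67366714-67366762 and ME1, which makes NADPH, at chr6:83431160-83431208, all on the minus strand of GRCh38.p14.
GCLM: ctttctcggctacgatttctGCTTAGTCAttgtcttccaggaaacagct
PSMD12: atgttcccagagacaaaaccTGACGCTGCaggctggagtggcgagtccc
ME1: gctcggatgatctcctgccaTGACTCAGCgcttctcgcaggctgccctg
The capitals begin 34, 165 and 137 bases before the start of GCLM, PSMD12 and ME1. ME1 had 140 FPM in ATRA+Cfz and 84.4, 85.0 and 87.4 FPM in ATRA (0.70 ± 0.06).

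Of 29 ATF4 genes of the integrated stress response tested, 15 were called higher and none lower, with a median of 0.31. The shares over all tested genes were 10.6% and 20.2%. ATF4 had 372 FPM in ATRA+Cfz and 272, 274 and 275 FPM in ATRA (0.44 ± 0.06). DDIT3 (CHOP), a transcription factor linked to stress-induced death, had 22.2 FPM against 9.76, 8.55 and 9.50 FPM (1.22 ± 0.14). PPP1R15A (GADD34), which restores translation after stress, was at 145 FPM against 73.6, 71.0 and 74.2 FPM (0.99 ± 0.06). The serine synthesis enzyme PSAT1 and the glycyl-tRNA synthetase GARS1 each rose by 0.56 ± 0.05. The C/EBP-ATF element TGATGNAA was held by 5 of the 25 matched promoters of this list (20%) and by 3.19% of all promoters in the table. Of the 15 matched promoters of genes called higher, 3 held it.

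Of 24 genes of the unfolded protein response of the endoplasmic reticulum, 3 were called higher and 8 lower, with a median of -0.10. Over all tested genes too, more were called lower than higher (20.2% and 10.6%), and the 8 lower calls were 6 with median-ratio or TMM scaling, edgeR or DESeq2. Without DMSO 3 these counts were 6 and 14, and the 3 higher calls became 1 when ATRA 1, ATRA 2 or ATRA 3 was left out. DERL3, a channel component for export of misfolded proteins, fell by 0.92 ± 0.07, with 46.0 FPM in ATRA+Cfz and 89.9, 83.0 and 89.7 FPM in ATRA. The disulfide isomerase PDIA4 fell by 0.48, the secreted factor MANF by 0.40 and XBP1, the factor of the response that plasma cells use for secretion, by 0.23 ± 0.05. Of 8 AP-1 and immediate early genes tested, 1 was called higher and 2 lower, with a median of -0.24, and 5 lay below the range of the ATRA libraries. JUND fell by 0.30 ± 0.10 (adjusted p = 0.041) and FOSL2 by 0.39 ± 0.14 (adjusted p = 0.048), and no lower call was left without ATRA 1, 2 or 3. JUN rose by 0.58 ± 0.08, with 26.7 FPM against 18, 17.2 and 18 FPM, and FOS was at 0.0703 FPM against 0.19, 0.14 and 0.126 FPM, which is at or under the level of 3 reads.

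DNA replication genes were lower throughout. All 23 of the list were called lower, with a median of -0.82, and all 23 lay below the range of the ATRA libraries. Their summed level was 1743 FPM in ATRA+Cfz and 2809, 2825 and 2833 FPM in ATRA. MCM5, a subunit of the helicase that opens replication origins, had 44.2 FPM against 94.8, 94.4 and 95.7 FPM, 2.15-fold lower (-1.10 ± 0.05, adjusted p = 4.1e-07). MCM2 was at 76.9 FPM against 154, 154 and 157 FPM (-1.01 ± 0.05), and MCM4 at 143 FPM against 282, 273 and 276 FPM (-0.95 ± 0.05). UHRF1, which helps to copy DNA methylation to new strands, was at 23.3 FPM against 56.1, 55.0 and 53.3 FPM (-1.22 ± 0.07). E2F1, a transcription factor of replication genes, was at 15.3 FPM against 40.4, 38.3 and 41.9 FPM (-1.37 ± 0.07). Over the 20 alternative settings, 22 or 23 of the 23 genes were called lower.

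**Figure D4:**
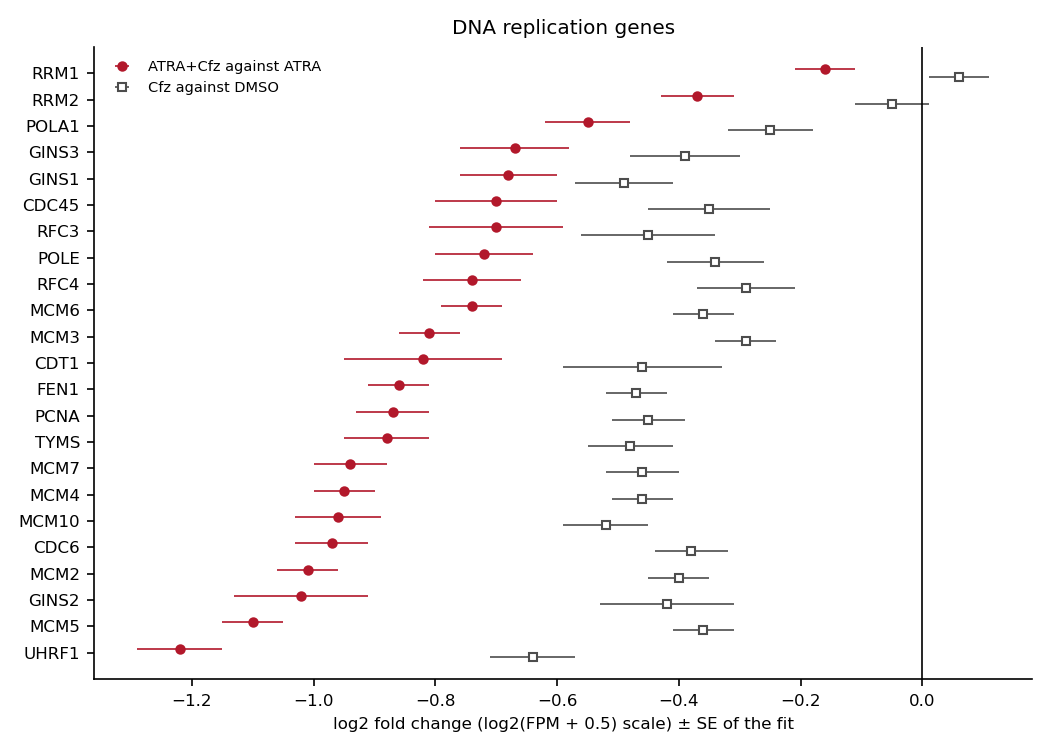
Log2 fold change of the 23 DNA replication genes, with the SE of the fit, for ATRA+Cfz against ATRA (filled circles) and Cfz against DMSO (open squares). All circles lie below 0, from -1.22 to -0.16.

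Mitotic genes were lower in part. Of 22, 11 were called lower and 1 higher, with a median of -0.26. The 11 became 7 without ATRA 3 and 17 without DMSO 3, and the 1 became 0 without ATRA 1, 2 or 3 or DMSO 2. The kinases CDK1 and AURKB fell by 0.55 ± 0.07 and 0.56 ± 0.10, while the proliferation marker MKI67 was at 392 FPM in ATRA+Cfz and 420, 413 and 428 FPM in ATRA and did not pass the test (adjusted p = 0.18). Of 12 cyclin and CDK genes, 6 were called lower, among them CDK2 (-0.74 ± 0.08), CCNE1 (-0.72 ± 0.12) and CDK4 (-0.56 ± 0.06). The CDK inhibitor CDKN1A (p21) had 62.6 FPM against 57.7, 57.6 and 55.0 FPM and did not pass (adjusted p = 0.16). Of 20 p53 target genes, 2 were called higher and 6 lower, with GADD45A rising by 0.60 and BAX falling by 0.65. Of these genes, 4 were called higher without DMSO 3, and 2 were called lower in DESeq2. Over all tested genes, 10.6% were called higher and 20.2% lower.

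Among growth and biosynthesis genes, MYC fell by 0.24 ± 0.04, with 569 FPM in ATRA+Cfz and 674, 674 and 667 FPM in ATRA. Over all tested genes, 20.2% were called lower and 10.6% higher, beside which the counts of this paragraph stand. Of 23 MYC and nucleolar genes, 11 were called lower and 1 higher, which became 17 and 2 without DMSO 3. Of 74 cytosolic ribosomal protein genes, 48 were called lower and none higher, with a median of -0.21 and a summed level of 41741 FPM against 47507, 47650 and 48101 FPM. Of 25 cholesterol synthesis genes, 16 were called lower and none higher, with a median of -0.33, and EBP, a sterol isomerase, had 28.9 FPM against 46.7, 44.8 and 47.5 FPM (-0.67 ± 0.07). Of 19 glycolysis genes, 8 were called lower and 2 higher, among them LDHA at -0.41 ± 0.05. Of 20 lysosome genes, 5 were called higher and 2 lower, the 2 becoming 6 without DMSO 3 and 3 without DMSO 1, and the protease CTSD had 338 FPM against 216, 218 and 211 FPM (0.65 ± 0.05).

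Of 22 plasma cell identity genes, 11 were called lower and 1 higher (3 without DMSO 3), with a median of -0.20. MZB1, a chaperone of antibody assembly, had 381 FPM in ATRA+Cfz and 556, 556 and 547 FPM in ATRA (-0.54 ± 0.05), SDC1 fell by 0.41 and the chemokine receptor CXCR4 by 0.64 ± 0.10. Of 4 immunoglobulin genes tested, 1 lay above the range of the ATRA libraries and 3 below it, with a median of -0.25. The summed level of the immunoglobulin list was 8252 FPM in ATRA+Cfz against 9572, 9463 and 9279 FPM in ATRA. IGHG1, the gene above the range, was at 282 FPM against 278, 273 and 272 FPM. IGLL5 was at 2333 FPM against 3072, 3107 and 3008 FPM (-0.39 ± 0.07). Among 21 genes of the BCL2 family and the caspases, 2 were called higher and 8 lower, the 8 becoming 4 without the intensity trend. Over all tested genes, 10.6% were called higher and 20.2% lower. The survival factor MCL1 rose by 0.18 ± 0.04, with 1577 FPM against 1389, 1374 and 1404 FPM, and CASP8, the initiator caspase of death receptors, rose by 0.42 ± 0.05. BCL2 fell by 0.36 ± 0.07, and the pore formers BAX and BAK1 fell by 0.65 ± 0.11 and 0.42 ± 0.06.

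Most genes of MHC class I presentation were lower, whereas genes of the interferon response had no common direction. Of the 13 MHC class I genes, 11 lay below the range of the ATRA libraries. Of the 34 interferon-stimulated genes, 15 lay above that range and 13 below it. The medians were -0.25 and 0.06. Over all tested genes, 10.6% were called higher and 20.2% lower. Of 13 genes of MHC class I presentation, 8 were called lower and 1 higher, the 8 becoming 4 without ATRA 2. TAP1, a subunit of the peptide transporter, had 55.4 FPM in ATRA+Cfz and 73.1, 76.8 and 72.1 FPM in ATRA (-0.41 ± 0.07). Of 34 interferon-stimulated genes, 8 were called higher and 4 lower, the 4 becoming 2 without ATRA 2 or ATRA 3. IFI44 was at 10.3 FPM against 1.83, 1.39 and 1.46 FPM (2.40 ± 0.24), and SAMD9L, an antiviral factor, at 617 FPM against 323, 314 and 319 FPM (0.95 ± 0.06). OAS2 was at 102 FPM against 124, 120 and 120 FPM (-0.25 ± 0.06). OAS1, a sensor of double-stranded RNA, was at 115 FPM against 125, 129 and 131 FPM (adjusted p = 0.46).

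The response to ATRA itself was present in both groups. CYP26A1 had 4316 FPM in ATRA+Cfz and 3822, 3814 and 3808 FPM in ATRA, a log2 change of 0.18 ± 0.08 that did not pass the test (adjusted p = 0.12). CD38 had 376 FPM against 434, 426 and 433 FPM (-0.20 ± 0.09, adjusted p = 0.12), and the receptor RARA was at 88.2 FPM against 89.1, 87.3 and 86.1 FPM. Of 14 retinoid genes tested, none was called higher and 1 lower, where 10.6% and 20.2% of all tested genes were. The lower one was HIC1, a transcriptional repressor, at 5.10 FPM against 9.27, 10.2 and 8.72 FPM (-0.82 ± 0.21, adjusted p = 0.012). Without DMSO 3, 1 of the 14 was called higher and 2 lower. A p above the threshold does not show that these genes were alike in the groups.

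RNAs that are not messenger RNAs of the nucleus also moved with the ATRA+Cfz library, and their part in the results above was not tested. Genes of the mitochondrial genome held 5.72% of the reads in ATRA+Cfz, against 3.89%, 3.67% and 3.72% in ATRA 1, 2 and 3. The interval of the 5.72% was 5.71% to 5.73% (Wilson, 95%), which covers counting error only. Of the 13 mitochondrial protein genes, 11 were called higher, with a median of 0.76, which became 5 without the intensity trend and 3 in limma's robust variant. Of the libraries without ATRA, Cfz was at 5.43% and DMSO 1, 2 and 3 were at 4.12%, 4.09% and 5.85%. RN7SL1, the RNA of the signal recognition particle, had 11.8 FPM in ATRA+Cfz and 1.51, 1.88 and 2.10 FPM in ATRA, and RN7SK, a regulator of transcription elongation, 3.40 FPM against 15.2, 13.7 and 11.1 FPM. The noncoding gene FP236383.2, named after its values were seen, had 261 FPM against 2205, 2803 and 1529 FPM, and FP671120.3 and FP236383.3 had the same values. The processed pseudogene AC010970.1, also named after its values were seen, was 10.8-fold lower in ATRA+Cfz than in ATRA, where it had 1101, 1471 and 795 FPM (-3.38 ± 0.36, adjusted p = 6.3e-05). FP236383.2 fell by 3.02 ± 0.34, and the mitochondrial transfer RNA MT-TS1 by 2.64 ± 0.31. Marker genes of epithelial cells summed to 2.54 FPM in ATRA+Cfz and 0.752 to 1.15 FPM in ATRA, with EPCAM called higher at 1.55 FPM and KRT18 under the level of 3 reads. The EPCAM call was lost without ATRA 1 and without ATRA 2. With mitochondrial genes left out of the total, 1938 genes were called higher and 2847 lower.

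Rises and falls were ranked among genes with a gene symbol, at least 2 FPM, an ATRA+Cfz value outside the ATRA range and lanes that agreed within sampling noise in the ATRA+Cfz and ATRA libraries, which leaves out HSPA1A and genes known only by a clone name. The 15 largest rises included HSPA6, HMOX1, HSPA1B, SQSTM1, MRNIP, IFI44 and the RNAs RN7SL1 and RN7SL2. UBD (FAT10), a ubiquitin-like tag that sends proteins to the proteasome, had 8.56 FPM in ATRA+Cfz against 1.89, 1.87 and 1.65 FPM in ATRA (1.98 ± 0.28). TUBB4A had 2.41 FPM against 0.316, 0.209 and 0.318 FPM, and CYP4F11 2.13 FPM against 0.188, 0.208 and 0.382 FPM. The pseudogenes HMGN2P5, at 3.90 FPM against no reads in ATRA, and DUXAP8, at 2.13 FPM against 0.504, 0.211 and 0 FPM, can share reads with their parent genes and are uncertain.

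The 15 largest falls under the same limits included E2F1, the mitochondrial transfer RNA MT-TS1 and RN7SK. They also held IMPA2, an inositol phosphatase, at 3.32 FPM in ATRA+Cfz against 10.6, 11.4 and 11.3 FPM in ATRA (-1.60 ± 0.12, adjusted p = 8.5e-06). HPSE, the enzyme that cuts heparan sulfate, was at 3.47 FPM against 10.7, 9.59 and 9.94 FPM (-1.41 ± 0.11). FANCE, of the Fanconi anemia DNA repair complex, was at 3.32 FPM against 9.44, 11.5 and 8.41 FPM (-1.42 ± 0.17). The death receptor TNFRSF21 had 0.637 FPM against 2.84, 2.37 and 2.49 FPM. CA2, SNHG25, EFNB1, LOC150051, PAFAH1B3, GNAZ, KLHL23 and NT5DC2 fell by 1.31 to 1.43 on the log2 scale.

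The carfilzomib effect was then set against the same effect without ATRA, which was measured in Cfz and DMSO libraries. In Cfz against DMSO 1257 genes were called higher (7.94%) and 2691 lower (17%). In all, 2557 genes were called in both comparisons, which is 52.4% of the calls with ATRA and 64.8% of those without. Of these genes, 2520 had the same direction. Both comparisons use the same estimate of the spread, so their calls are not independent. The difference of the effects, with ATRA minus without, was called for 364 genes (2.3%), of which 157 were positive and 207 negative. That count rests on single libraries. It was 2, 8 and 16 without ATRA 1, 2 and 3, 240 and 169 without DMSO 1 and 2, and 1986 without DMSO 3, and 1 gene was called without the intensity trend. Of the 47 genes named here with a called difference, 1, 4 and 5 kept it without ATRA 1, 2 and 3.

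Of the 42 genes of the proteasome subunits and their assembly, 20 had a smaller effect with ATRA and none a larger one, with a median difference of -0.35 against 0.01 over all genes. The 20 became 0, 0 and 1 without ATRA 1, 2 and 3, 16 and 14 without DMSO 1 and 2, and 34 without DMSO 3. The median difference itself was between -0.40 and -0.33 over all alternative settings. The summed level of these genes was 9108 FPM in ATRA+Cfz against 6763, 6740 and 6808 FPM in ATRA, and 8968 FPM in Cfz against 5263, 5243 and 5233 FPM in DMSO. The 2 libraries with carfilzomib lay close together in this sum, and the ATRA libraries lay above the DMSO libraries. PSMD2 had 951 FPM against 634, 639 and 641 FPM with ATRA, and 922 FPM in Cfz against 462, 461 and 435 FPM in DMSO, with a difference of -0.45 (adjusted p = 0.015). PSMB5 had 53.5 FPM in Cfz against 30.5, 30.8 and 27.2 FPM in DMSO, with a difference of -0.66 (adjusted p = 0.024).

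Replication genes had a more negative effect with ATRA, with 11 of 23 called and a median difference of -0.40. The 11 became 1, 2 and 2 without ATRA 1, 2 and 3, and 9, 8 and 18 without DMSO 1, 2 and 3. MCM5 was at 138 FPM in Cfz against 178, 176 and 175 FPM in DMSO, and its difference was -0.74 ± 0.07 (adjusted p = 2.3e-03). Of 52 cytosolic chaperones 4 had a called positive difference and none a negative one, with a median of -0.03. The 4 became 0, 0 and 1 without ATRA 1, 2 and 3, 3 without DMSO 1 or 2, and 10 without DMSO 3, where 4 were negative. The difference was positive for HSP90AA1 (0.48, adjusted p = 0.012), which had 2087 FPM in Cfz against 1256, 1261 and 1280 FPM in DMSO. It was positive for DNAJB1 too (0.57, adjusted p = 0.012), with 134 FPM in Cfz against 102, 106 and 110 FPM in DMSO. The summed HSPA1A and HSPA1B level was 3.17-fold higher in Cfz than in DMSO, at 332 FPM against 94.8, 92.8 and 127 FPM. With ATRA the same sum was 7.42-fold higher, and the difference of these folds was not tested.

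CYP26A1 and CD38 differed as well, from far lower levels without ATRA. CYP26A1 was at 51.4 FPM in Cfz against 79.0, 77.7 and 92.9 FPM in DMSO, a fall of 0.69 on the log2 scale (adjusted p = 1.7e-04). Its difference was 0.86 ± 0.12 (adjusted p = 0.012). CD38 was at 39.0 FPM in Cfz against 64.7, 67.5 and 79.5 FPM in DMSO, and its difference was 0.64 (adjusted p = 0.029). UBD was at 0.131 FPM in Cfz against 0.351, 0.182 and 0.0664 FPM in DMSO, and its difference was 2.11 (adjusted p = 0.025). Of these 3 genes, none kept the call of the difference in every alternative setting.

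**Figure D5:**
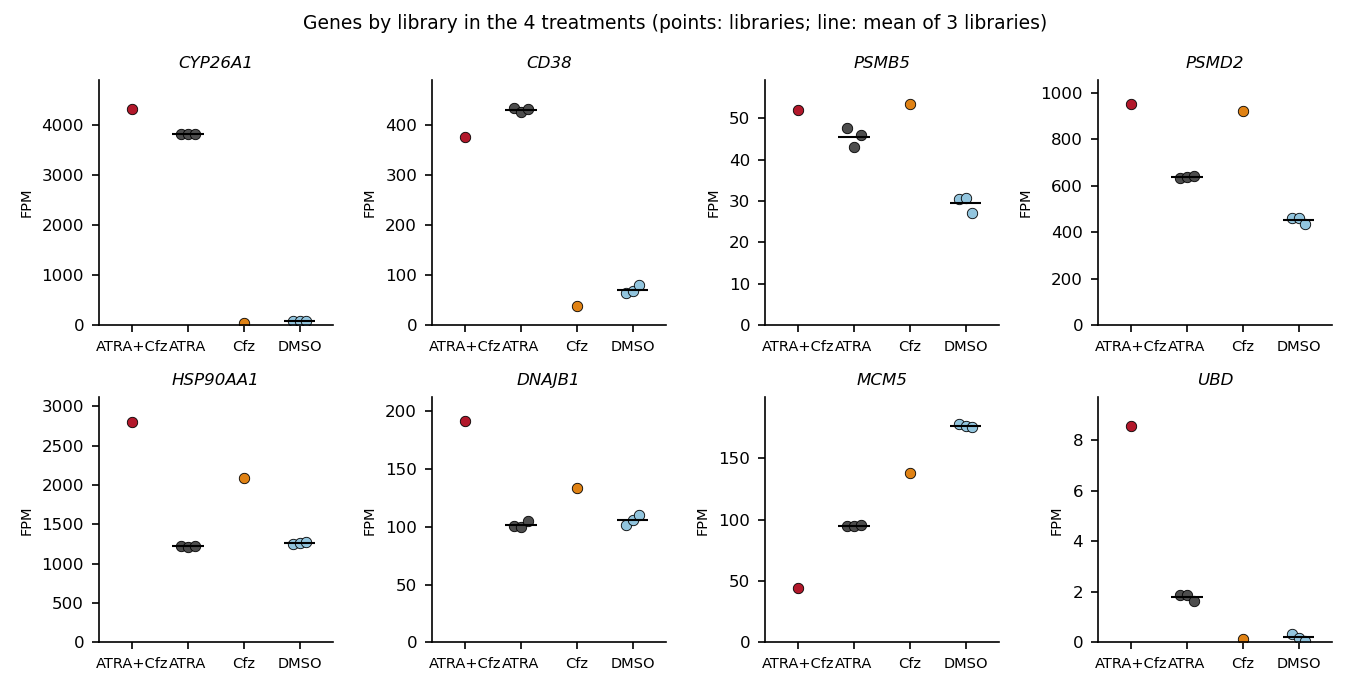
FPM of 8 genes in ATRA+Cfz, ATRA, Cfz and DMSO libraries (points, line at the mean of 3 libraries), each panel from 0. CYP26A1 and CD38 are high in both groups with ATRA, PSMD2 is at 951 and 922 FPM in the libraries with carfilzomib, and UBD has 8.56 FPM in ATRA+Cfz.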

How the data were processed

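Total RNA of MM.1S cells was sequenced, and 32 samples (8 libraries in 4 lanes) were used. The authors deposited gene-level FPM values, a CPM unit, for each lane. Per the submitters' processing notes, fastp 0.20.0, kallisto 0.46.2 and DESeq2 were used. Neither the labels nor those notes state the build, annotation or strand setting of the quantification. The table's 24402 lines hold 24249 distinct gene IDs, each used once. Whole reads could be recovered for 100% of values within 0.01 read, and depth was 14136937 to 17155331 reads per library. Chi-square per degree of freedom was 1.17 to 1.22 among lanes of a library, so lanes were averaged and a library counts once. Missing symbols came from GENCODE release 29 and a table of gene names, and 745 IDs stayed without one.

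Tests used limma 3.58.1 (R 4.3.3). Its trended empirical Bayes fit was run on log2(FPM + 0.5), which understates the change of low genes. All 8 libraries entered 1 fit with 4 groups, 4 residual and 7.2 prior degrees of freedom. Genes whose 4 group means averaged under 0.5 FPM were left out. A call needs an adjusted p (Benjamini-Hochberg, over all 15827 genes) under 0.05. Contrasts were ATRA+Cfz against ATRA, Cfz against DMSO, and the difference of these effects, which shares the ATRA+Cfz and ATRA libraries with the first. The procedure was tested on simulated data in which all libraries had the same spread. Such data cannot show whether the single ATRA+Cfz library varies like the ATRA and DMSO libraries.

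The comparison, the gene lists and the rule for named genes were chosen with earlier results of these data known. Named were the 15 largest called rises and falls among genes with a gene symbol (clone names do not count) at 2 FPM or more, whose ATRA+Cfz value lies outside the ATRA range and whose lanes agree within sampling noise in those 4 libraries, the up to 4 list members with the smallest p, any member of a list of up to 15 genes, 18 genes tied to the treatments, and the 6 largest called differences in each direction. Alternatives were pseudocounts of 0.1 and 2 FPM, no filter and a filter at 2 FPM, median-ratio and TMM scaling, a total without mitochondrial genes, edgeR 4.0.16 and DESeq2 1.42.0 on recovered reads, robust and untrended empirical Bayes, the ATRA+Cfz and ATRA libraries alone, lane 1 or lane 4 alone, and leaving out each replicate. Promoter windows came from RefSeq (GRCh38.p14), and 529 of 678 listed genes matched the table by symbol. Some genes that the rule named are left out of the text, and counts over named genes include them.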

Additional observations from a re-analysis of the deposited data

Results flagged for a closer look

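For 47 of the named genes, the carfilzomib effect with ATRA differed from the effect without ATRA. The test was that of the difference itself (limma, Benjamini-Hochberg adjusted p under 0.05). Some of these genes were named because their difference was among the largest called, so their calls follow from that choice. The 47 is therefore no independent count. Over all 15827 tested genes, 364 differences (2.3%) were called. Values are the log2 change of ATRA+Cfz against ATRA minus that of Cfz against DMSO. Each effect rests on 1 library with carfilzomib, and 1, 4 and 5 of these 47 calls were kept without ATRA 1, 2 and 3.

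Among proteasome subunits, all called differences of named genes were negative: PSMB5 -0.66, PSMC4 -0.48, PSMD2 -0.45, PSMB7 -0.43, PSMB2 -0.41, PSMA6 -0.40 and PSMD13 -0.40. The activator PSME1 was at -0.39. Other genes of protein quality control and of stress with a negative difference were GABARAPL1 at -0.82, SRXN1 at -0.51, DERL3 at -0.50, SEC61B at -0.36 and CTSD at -0.67. Positive differences among stress genes were those of HSPA1B at 1.25, DNAJB1 at 0.57, JUN at 0.55, HSP90AA1 at 0.48 and PSAT1 at 0.41.

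Of the 23 replication genes, 11 had a called negative difference, and the named ones were MCM5 at -0.74, MCM2 at -0.61, UHRF1 at -0.58 and MCM4 at -0.49. E2F1 was at -0.76, CDK4 at -0.40 and the centromere gene CENPX at -0.92. None of 22 mitotic genes had a called difference, with a median of 0.05, and of 12 cyclin and CDK genes 1 had, with a median of -0.02. Of 19 glycolysis genes 8 had a negative difference and none a positive one, among them TPI1 at -0.37, PGAM1 at -0.31 and LDHA at -0.31. The 8 became 0, 0 and 1 without ATRA 1, 2 and 3, and 5, 4 and 12 without DMSO 1, 2 and 3. Of 25 cholesterol synthesis genes 1 difference was negative, that of EBP at -0.52, and 1 was positive.

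Of the genes of plasma cells and of the retinoid, survival and NF-kB lists, CYP26A1 was at 0.86, CD38 at 0.64, NFKBIZ at 0.73, MCL1 at 0.29, MZB1 at -0.36 and IGLC1 at -0.45. IGLC1 belongs to a family of near-identical genes and is uncertain.

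The remaining positive differences were UBD at 2.11, RN7SL1 at 2.05, ZBTB47-AS1 at 1.44, GAB2 at 0.94 and TTN at 0.94. The remaining negative ones were MT-TS1 at -2.19, RN7SK at -1.72, LOC150051 at -1.56, HLA-DRB5 at -1.25, DGKG at -0.97, PIR at -0.92 and HPSE at -0.69. The antisense gene ZBTB47-AS1 is uncertain because the strand setting is not given, and RN7SK because its lanes differed by more than sampling noise in at least 1 library.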

How the results depend on the processing

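The counts of genes called higher and lower kept within 1.5 times of the reported 1681 and 3203 except in single lanes and, for lower calls, in DESeq2. Lane 1 alone gave 699 higher and 1470 lower, lane 4 alone 709 and 1486, and DESeq2 1723 lower. Leaving out 1 replicate gave 1308 to 2300 higher and 2596 to 4092 lower. Cfz against DMSO, with 3948 calls, gave 2013 in DESeq2, 2485 without the intensity trend, 1422 in lane 1, 1434 in lane 4 and 3321 to 5449 with 1 replicate left out. The difference of the effects, with 364 calls, gave 551 with median-ratio scaling, 1 without the intensity trend, 17 in lane 1, 6 in lane 4 and 2 to 1986 with 1 replicate left out. A single lane holds fewer reads, and for the other settings the cause was not tested. No scaling moved the median of all genes by as much as 0.1 on the log2 scale. Of 170 named genes called in ATRA+Cfz against ATRA, the number kept ranged from 132 in lane 1 to 170. Only DUXAP8 changed sign, at -0.19 in lane 1 against 1.89. Of 47 named genes with a called difference, none kept it without the trend or in lane 4. Among the gene lists, lower calls without the intensity trend were 10 against 16 for cholesterol synthesis, 6 against 11 for the MYC list and 2 against 8 for MHC class I presentation. No paired analysis was possible because the ATRA+Cfz and Cfz groups have 1 library each and carry no replicate number. Depth limits what can be said of genes near 3 reads, which is 0.175 to 0.212 FPM.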
